A study of Mus musculus with 3 samples.

Results

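The epithelial cells described here are those that the authors placed in cluster 8 of a single-cell RNA-seq dataset of the mouse anorectal junction, the place where the simple epithelium of the colon meets the stratified epithelium of the anus. The deposited annotation calls the cluster keratinocytes. The working name of gland duct keratinocytes rests on 6 marker genes, Krt79, Cst6, Defb6, Alox12e, Defb1 and Klk7. The cluster held 2088 of the 37080 cells in all, which were 781, 943 and 364 cells at days 0, 7 and 42. The mice were wild-type C57Bl/6 animals bought at 6 weeks of age, and all were dissected for the distal colon together with the anus. The day 0 group was untreated. The day 7 and day 42 groups drank 3% dextran sulfate sodium (DSS), a polymer that injures the colonic epithelium, for 6 days, and were labelled as highly colitic and as recovered. Each group was 5 mice pooled into 1 library of the 10x Chromium 3' assay, so no group has a replicate and no test between days was possible. Intervals given below are 95% exact Poisson intervals for levels and Clopper-Pearson intervals for shares, and cover counting error only. They leave out the variation between mice and between preparations.

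Keratin 79 is a type II keratin known from the cells that line the upper hair follicle and the ducts through which sebaceous glands open to the surface. The transcription factor Gata6 is known to mark and maintain the same ducts. Such duct linings are stratified: basal cells anchored to the basement membrane divide, and their daughters move up, keratinize and are shed into the lumen. Shedding is controlled by a balance of surface proteases, such as the kallikreins, and of protease inhibitors. Cystatin M/E, the product of Cst6, is a protease inhibitor that can inhibit cathepsin L.

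The promoters of the marker genes matched in RefSeq (GRCm38.p6; 4 of the 6 markers) are printed because these genes define the cluster. Those of Hmgcs1 and Msmo1 are printed as examples of cholesterol synthesis genes, chosen after their values were seen, and neither passed 2-fold between day 0 and day 7 once 10 CPM was added to both levels. Each runs 5' to 3' from 250 bases before to 50 bases after the annotated start. In the markers, capitals mark the letters AGATAA, bound by factors such as Gata6, searched on both strands. In Hmgcs1, which encodes cytosolic HMG-CoA synthase, and Msmo1, which encodes a sterol methyl oxidase, capitals mark CCAAT and TCACNCCAC, the latter a core of the sterol regulatory element, on both strands.
Krt79, chr15:101940275-101940574, minus strand: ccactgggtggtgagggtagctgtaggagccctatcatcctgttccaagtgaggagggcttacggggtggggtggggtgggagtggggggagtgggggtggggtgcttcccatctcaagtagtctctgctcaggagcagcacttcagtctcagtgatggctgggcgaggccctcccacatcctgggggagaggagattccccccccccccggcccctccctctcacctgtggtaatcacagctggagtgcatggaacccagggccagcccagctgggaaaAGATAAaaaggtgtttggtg
Defb6, chr8:19225228-19225527, plus strand: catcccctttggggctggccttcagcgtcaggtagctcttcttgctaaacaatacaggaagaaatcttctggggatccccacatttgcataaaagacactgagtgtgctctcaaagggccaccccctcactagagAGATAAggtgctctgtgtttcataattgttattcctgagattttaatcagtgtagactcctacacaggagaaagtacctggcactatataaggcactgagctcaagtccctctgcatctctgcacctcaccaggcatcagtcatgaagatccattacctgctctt
Alox12e, chr11:70322481-70322780, minus strand: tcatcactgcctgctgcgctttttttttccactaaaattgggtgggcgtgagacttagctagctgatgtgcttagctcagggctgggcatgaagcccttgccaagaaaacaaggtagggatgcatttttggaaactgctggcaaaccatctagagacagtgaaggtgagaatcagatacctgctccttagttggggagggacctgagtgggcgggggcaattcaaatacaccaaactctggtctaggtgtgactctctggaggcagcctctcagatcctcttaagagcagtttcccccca
Klk7, chr7:43811044-43811343, plus strand: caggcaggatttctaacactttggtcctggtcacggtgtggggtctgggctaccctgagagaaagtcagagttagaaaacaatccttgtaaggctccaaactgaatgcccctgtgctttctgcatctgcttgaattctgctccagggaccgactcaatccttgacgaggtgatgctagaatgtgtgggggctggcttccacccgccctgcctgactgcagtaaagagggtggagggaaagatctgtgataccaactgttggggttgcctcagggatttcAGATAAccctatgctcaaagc
Hmgcs1, chr13:119690101-119690400, plus strand: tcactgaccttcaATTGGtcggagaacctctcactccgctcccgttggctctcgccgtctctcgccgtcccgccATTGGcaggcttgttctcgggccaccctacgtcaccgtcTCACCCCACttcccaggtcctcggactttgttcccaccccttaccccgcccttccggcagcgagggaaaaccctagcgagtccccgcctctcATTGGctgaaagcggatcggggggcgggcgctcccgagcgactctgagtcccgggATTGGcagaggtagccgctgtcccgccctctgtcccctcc
Msmo1, chr8:64733529-64733828, minus strand: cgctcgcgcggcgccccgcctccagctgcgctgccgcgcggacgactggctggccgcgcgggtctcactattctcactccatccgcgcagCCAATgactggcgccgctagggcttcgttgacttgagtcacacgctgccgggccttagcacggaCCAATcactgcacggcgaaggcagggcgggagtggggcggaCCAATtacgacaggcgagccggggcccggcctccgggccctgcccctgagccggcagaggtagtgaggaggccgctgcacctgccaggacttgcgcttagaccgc
AGATAA was present once in the windows of Krt79, Defb6 and Klk7, and was not in that of Alox12e. It was in 11.2% of all 32851 RefSeq promoter windows of this length. The Hmgcs1 window held CCAAT 4 times and TCACNCCAC once, and the Msmo1 window held CCAAT 3 times and no TCACNCCAC. Of all windows, 37.4% held CCAAT and 1.24% TCACNCCAC. A match of letters is not evidence that a factor binds there.

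Of the keratinocytes at day 0, 23.6% belonged to cluster 8 (22.1 to 25.0). The share was 10.4% (9.81 to 11.1) on day 7 and 4.57% (4.12 to 5.05) on day 42. Of all cells they were 7.08%, 6.56% and 3.12%. The order of the days depends on the denominator. With clusters 1 and 5 left out of the keratinocytes, the shares were 28.0%, 11.3% and 13.1%, so that day 42 then lay above day 7. How much of each tissue entered each pool is not recorded, and its part in these shares was not tested.

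**Figure D1:**
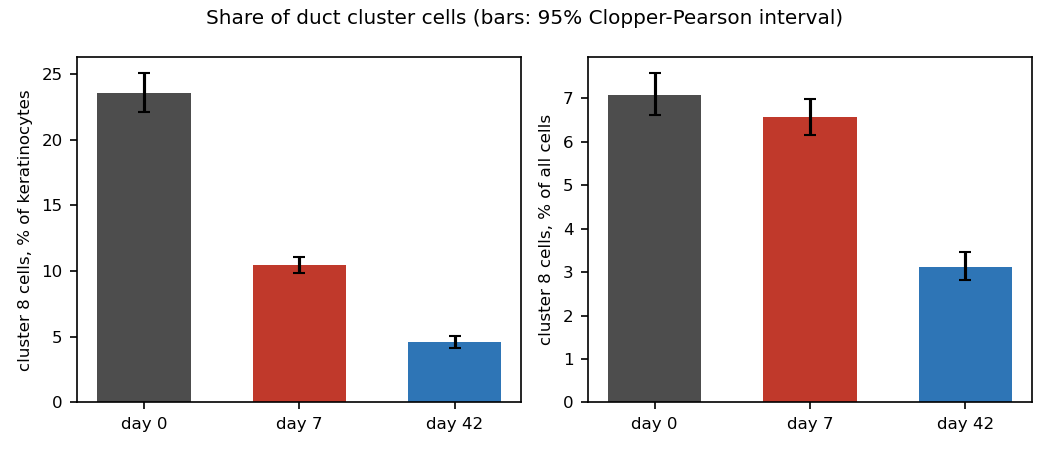
Share of cluster 8 cells among keratinocytes (left) and among all cells (right), in percent, for the 1 library of each day, with 95% Clopper-Pearson intervals as error bars. The share of keratinocytes is 23.6%, 10.4% and 4.57% at days 0, 7 and 42.

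Transcripts were counted by unique molecular identifiers (UMIs, each standing for 1 captured transcript). Cluster 8 held 6157726, 9239695 and 1421598 UMIs in the order of the days. The median cell had 7105, 8743 and 3579.5 UMIs, so the day 42 cells were the shallowest. The median share of mitochondrial UMIs was 11.2%, 9.34% and 11.5%. The libraries shared 40 to 55 cell barcodes in pairs, and 1 shared barcode was a cluster 8 cell in both libraries. Levels are counts per 1000000 (CPM) of the summed UMIs of the cluster in a library. Ratios between days are given either as a fold of the CPM values or as a log2 ratio after 10 CPM was added to both, which understates the change of low genes.

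All 6 markers were higher in cluster 8 than in each of the 8 other keratinocyte clusters with at least 50 cells, in each of the 3 libraries. Because the cells were clustered on these same genes, this describes the cluster and is not a test of it. Cst6 (chromosome 19, 5344705 to 5349574), the cystatin M/E gene, had the most UMIs of the markers. It had 24926, 24531 and 30912 CPM at days 0, 7 and 42, while the highest other keratinocyte cluster had 1043, 1000 and 500.4. Krt79 (chromosome 15, 101929332 to 101940324) had 3219, 3112 and 2781 CPM. Its next highest level was in cluster 13, at 1268, 1676 and 719 CPM, so Krt79 separated these clusters less sharply than Cst6 did. Defb6 (chromosome 8, 19225478 to 19228209), a beta-defensin gene, had 1383, 2497 and 1455 CPM against at most 114 in another keratinocyte cluster. Alox12e (chromosome 11, 70315610 to 70322628), an epidermal 12-lipoxygenase gene, had 479, 110 and 391 CPM. Defb1 (chromosome 8, 21776599 to 21795185), a second beta-defensin gene, had 440, 747 and 528 CPM. Klk7 (chromosome 7, 43811294 to 43816359), a chymotrypsin-like protease of the cornified layer, had 59.9, 223 and 64.7 CPM. The coordinates are those of GENCODE M21 on GRCm38, the assembly behind the mm10 build of the deposited data.

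**Figure D2:**
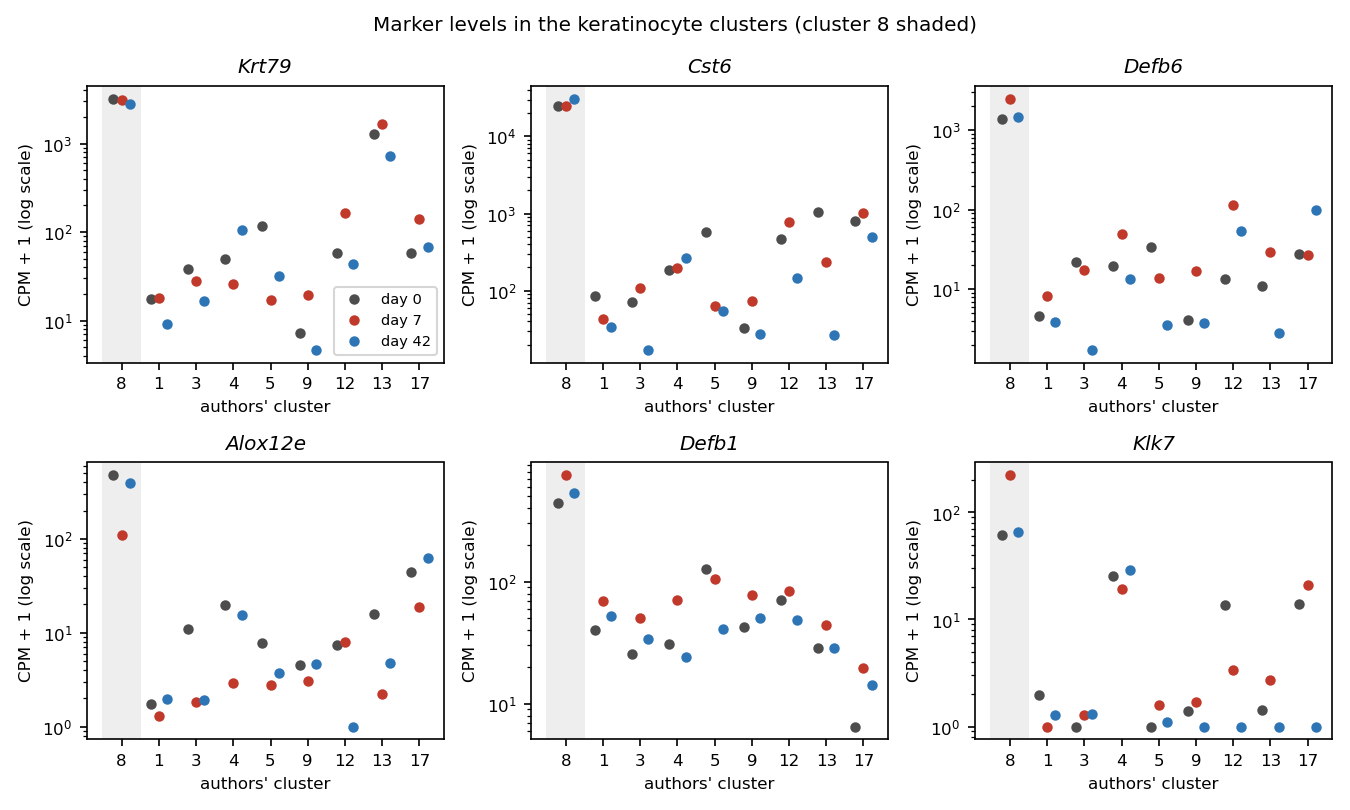
Level of each of the 6 markers (CPM plus 1, log scale) in each keratinocyte cluster (x axis, the authors' cluster numbers), with 1 point per library coloured by day. Cluster 8 is the highest in each panel and day, and only Krt79 in cluster 13 comes within 5 times of it at every day.

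Genes of the duct and the infundibulum, the funnel of the hair follicle, went with the markers only in part. Of the 11, 12 and 13 listed genes tested at days 0, 7 and 42, 7, 6 and 5 were at least 2-fold higher in cluster 8 than in the other keratinocyte clusters, and 1, 2 and 3 at least 2-fold lower. Gata6 had 78.0, 53.4 and 68.9 CPM at days 0, 7 and 42, against at most 14.3 in another keratinocyte cluster. Lrig1, which marks stem cells of the upper follicle, had 55.9, 49.5 and 43.6 CPM and was also highest in cluster 8. Atp6v1c2, a proton pump subunit, had 104, 96.9 and 85.8 CPM against at most 15.9. Tgm3, a transglutaminase gene, was lower at each day, at 7.47, 4.87 and 4.22 CPM against means of 60.2, 31.3 and 44.5. Sox9, Plet1 and Krt17 ranked second at each day, Sox9 and Krt17 behind cluster 17 and Plet1 behind cluster 5. At day 0, 179 of 6080 genes tested were at least 2-fold higher in cluster 8 than in the mean of the other keratinocyte clusters (2.94%) and 306 were at least 2-fold lower (5.03%). The shares were 3.03% and 4.86% at day 7, and 3.12% and 6.03% at day 42.

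Beyond 5 of the 6 markers, the genes that stood highest over the other keratinocyte clusters in all 3 libraries included AA467197, Egr2, Qsox1, Clca3a2, Cpe, Fbxo32, Egln3, Orm1 and Ifi27l2a. Cpe, which encodes carboxypeptidase E, a prohormone-processing enzyme, had 670, 734 and 670 CPM, with a log2 ratio over the other clusters of 2.27, 2.74 and 2.42. Qsox1, a secreted enzyme that forms disulfide bonds, had 308, 298 and 289 CPM. Both genes kept nearly the same level over the days. Egr2, a zinc-finger transcription factor, had 246, 190 and 213 CPM, each more than the highest other cluster, which reached 81.1.

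The genes that stood lowest below the other keratinocyte clusters in all 3 libraries included Gsto1, Gsta4, Krt6a and Krt10. The glutathione transferases Gsto1 and Gsta4 had 239 and 143 CPM in cluster 8 at day 0, against means of 3369 and 1268 in the other clusters. Krt6a, a keratin of wounded and mucosal epithelium, had 360, 906 and 575 CPM, against 6218, 8538 and 7862 in cluster 5. Krt10, the partner of Krt1 in epidermal suprabasal cells, had 540, 656 and 362 CPM, against 11244, 9913 and 8780 in cluster 4. The mean of the other clusters was 1915, 1474 and 1367 CPM for Krt10 and came mostly from cluster 4. Its low standing thus rests on that cluster. The 28 sebaceous lipid genes summed to 1150, 1251 and 1075 CPM in cluster 8 at days 0, 7 and 42. The highest other keratinocyte cluster had 18651, 18995 and 13416 CPM, and the lowest had 724, 589 and 490, below cluster 8. The mean of the other clusters, 3131, 3160 and 2312 CPM, came mostly from the highest. Counts against that mean therefore do not set cluster 8 below keratinocytes in general. Against it, none of 19, 19 and 17 genes tested was 2-fold higher in cluster 8, while 10, 11 and 10 were at least 2-fold lower. Over all genes 5.03%, 4.86% and 6.03% were that much lower. Across genes, the profile of cluster 8 was most like that of cluster 9 at day 0 (Pearson r of log2 levels 0.901 over 8172 genes) and of cluster 4 at day 7 (0.921 over 7646) and day 42 (0.903 over 8071). At day 42 cluster 9 was nearly level, at 0.900, and it was the most like under both alternatives, at 0.878 against 0.874 for cluster 4 with genes of at least 100 CPM and 0.845 against 0.842 as Spearman's rho. These are descriptions across genes of the same libraries.

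The genes of MHC class I presentation, whose products serve to present peptides on the cell surface to T cells, were high in cluster 8. At day 0, 7 of the 8 listed genes tested against the other keratinocyte clusters were at least 2-fold higher, as were 4 of 8 at day 7 and 6 of 9 at day 42. Over all genes the shares were 2.94%, 3.03% and 3.12%. Their summed level was 2823, 2349 and 3247 CPM at days 0, 7 and 42. The range over the other clusters was 448 to 1735, 424 to 1485 and 993 to 1585. H2-K1, a class I heavy chain, had 964, 851 and 1153 CPM, and B2m, its light chain, had 779, 619 and 937 CPM. Both were highest in cluster 8 at each day.

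The cells of cluster 8 were not uniform for the markers. After each cell was thinned to 2000 UMIs, leaving out 20, 57 and 55 shallower cells, Krt79 was detected in 48.2%, 47.2% and 44.0% of the cells at days 0, 7 and 42. Before thinning it was detected in 56.2%, 62.1% and 46.4%. Cst6 was detected in 48.0%, 52.3% and 45.6% after thinning. In T cells, which should lack both genes, thinned shares were 1.75%, 4.48% and 3.85% for Krt79 and 14.04%, 14.9% and 7.69% for Cst6. The thinned T cells numbered 114, 67 and 26 of 219, 118 and 121, and the median depth of all T cells was 2064, 2260 and 1393 UMIs. At most 1 of the 6 markers was detected in 43.2%, 39.8% and 45.3% of thinned cells at days 0, 7 and 42. At least 3 were detected in 42.7%, 46.5% and 40.8%. The cluster is therefore marked by these genes as a sum, while many single cells in it showed few of them at this depth.

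Several markers were detected less often in cells with Krt15, a keratin of basal cells, than in those without. Krt15 was chosen for this split after its values were seen. It was detected in 61.5%, 48.2% and 57.9% of thinned cells at days 0, 7 and 42, beside 3.51%, 2.99% and 3.85% of T cells. Among day 0 cells with a Krt15 UMI, Krt79 was detected in 27.1% (23.2 to 31.4), and among those without in 81.9% (77.0 to 86.1). At day 7 the shares were 23.9% and 68.8%, and at day 42 they were 21.8% and 74.6%. Cst6, Defb6 and Krtdap, a gene of differentiating keratinocytes, followed the same pattern, with Defb6 in 18.8% of day 0 cells with Krt15 and 70.3% of those without. In CPM of thinned cells, Cst6 had 4485 with Krt15 and 39147 without at day 0. Alox12e differed less, in 31.8% of day 0 cells with Krt15 and 48.5% of those without. Defb1 was spread more evenly, in 41.5% of day 0 cells with Krt15 and 56.0% of those without, and in 62.3% and 68.6% at day 7. The cell division gene Mki67 went the other way, in 12.4% of day 0 cells with Krt15 and 2.39% of those without. Col17a1, a collagen that anchors basal cells, had 474 CPM in day 0 cells with Krt15 and 142 in those without. Before thinning, the median day 0 cell had 6568 UMIs with Krt15 and 8951 without.

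**Figure D3:**
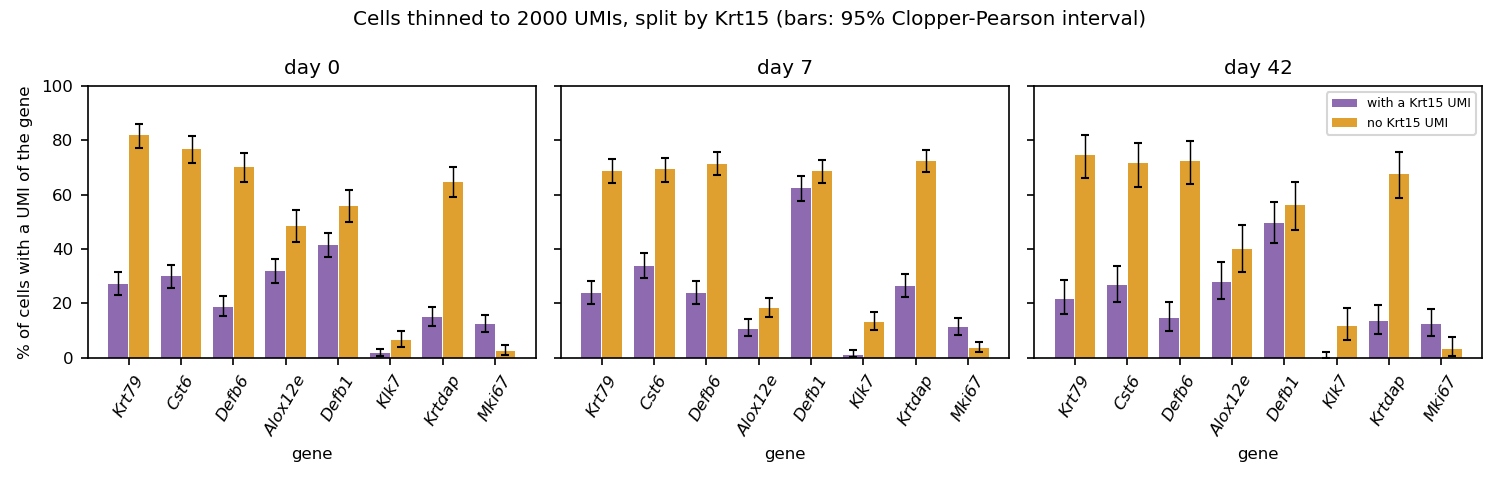
Share of cluster 8 cells with a UMI of each gene, in percent, among cells with (purple) and without (orange) a Krt15 UMI after thinning to 2000 UMIs, for each day, with 95% Clopper-Pearson intervals. Krt79, Cst6, Defb6 and Krtdap are detected more often without Krt15, Mki67 more often with it, and Defb1 differs least in relative terms among the markers.

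Between day 0 and day 7 the markers went in different directions. Klk7 was 3.71-fold higher at day 7 (3.32 to 4.16), Defb6 1.81-fold (1.76 to 1.85) and Defb1 1.70-fold (1.62 to 1.78). Alox12e was at 0.230 of its day 0 level (0.214 to 0.247). Krt79 and Cst6 had log2 ratios of -0.05 and -0.02, close to 0. Of all 5600 genes tested in the cluster, 40 were at least 2-fold higher at day 7 than at day 0 (0.714%) and 25 at least 2-fold lower (0.446%), with a median log2 ratio of -0.05. By day 42, Klk7 was at 1.08 times its day 0 level, Defb6 at 1.05, Defb1 at 1.20 and Alox12e at 0.817. The day 42 ratios to day 7 share the day 7 library with the ratios above and are not independent of them.

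Alox12e was lower at day 7 both in cells with and in cells without a Krt15 UMI. Krt15 itself was lower at day 7, and Krt5 in cells without it had 858, 1471 and 1281 CPM, so these groups need not hold the same kinds of cell on each day. In thinned cells with Krt15 it had 324, 69.1 and 279 CPM at days 0, 7 and 42, and in those without it had 775, 130 and 577. It was detected in 38.2%, 14.7% and 33.0% of all thinned cells, beside at most 1.49% of T cells. The log2 ratio was -2.02 in cluster 8 and between -1.27 and 0.06 in the 8 other keratinocyte clusters, where the highest level was 43.1 CPM at day 0. The higher Klk7 lay in few cells. Klk7 was detected in 3.55%, 7.45% and 4.85% of thinned cells at days 0, 7 and 42, and the 10 cells with most held 68.0%, 48.7% and 80.4% of its UMIs. It was not detected in thinned T cells, for which the exact upper limits were 3.18%, 5.36% and 13.2%. Without those 10 cells in each library the log2 ratio was 2.09, against 1.73 with them. In the other keratinocyte clusters the log2 ratio of Klk7 lay between -0.88 and 0.39. The higher Klk7 was among cells without Krt15, at 92.2, 303 and 108 CPM, while cells with Krt15 had 14.96 at day 0 and 10.5 at day 7. Defb6 was higher at day 7 in both groups of cells, at 443, 549 and 246 CPM with Krt15 and 2345, 3270 and 2723 CPM without. Cells without Krt15 were 38.5%, 51.8% and 42.1% of thinned cells at days 0, 7 and 42, and the part of this share in the day 7 levels was not tested.

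The kallikreins and skin proteases, Klk7 included, which cut the links between cornified cells and process barrier proteins, were compared over the whole list. Of its 22 genes, 20 lay above 0 on the log2 scale at day 7, with a median of 0.28. Of the 16 that reached 20 CPM in either library, 4 did so only at day 7, and for these the filter fixed the direction. Klk6, Klk7, Klk10 and Ctsl were at least 2-fold higher, and Klk6 was among those 4. Over all genes 0.714% were. Klk6, a trypsin-like kallikrein, had 3.74, 51.2 and 0.703 CPM at days 0, 7 and 42, and 80.8% of its day 7 UMIs were in 10 cells. Klk10 (chromosome 7, 43781035 to 43785410) had 136, 296 and 109 CPM, with 85.1%, 56.3% and 85.2% of its UMIs in 10 cells, and without these cells its day 7 log2 ratio was 2.20 against 1.07. With the filter on cells it was 0.97, short of 2-fold. Klk8 had 168, 299 and 189 CPM. Klk13 had 52.1, 107 and 96.4 CPM, so in the whole cluster it did not return to its day 0 level by day 42. In thinned cells with no Krt1 or Krt10 UMI it had 17.7, 64.0 and 24.6 CPM, near day 0 at day 42. In those with a Krt1 or Krt10 UMI it had 109, 102 and 208 CPM, the last from 27 UMIs in 65 cells. Ctsl, the cathepsin L gene, whose product cystatin M/E can inhibit, had 97.6, 215 and 76.0 CPM. Against day 7, 21 of the 22 lay below 0 at day 42, with a median of -0.33. Of the 6 genes at least 2-fold lower, 3 were under 20 CPM at day 42. In that comparison 46 of 5517 genes were at least 2-fold lower (0.834%) and 28 at least 2-fold higher (0.508%), with a median of -0.01. In thinned cells with Krt15 the list summed to 1112, 1215 and 927 CPM, and in those without to 2283, 3297 and 2354 CPM. The day 7 sum was thus close to day 0 in the former and higher in the latter.

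Genes of cholesterol synthesis were put in a list of 22 after these values were seen, so its counts describe the choice and support nothing. At day 7, 21 of the 22 lay above 0, with a median log2 ratio of 0.56 beside -0.05 over all genes tested. Of the 17 that reached 20 CPM, 3 did so only at day 7. At least 2-fold higher were 3 genes, each of which had 20 CPM at both days, beside 0.714% of all genes. Fdps (chromosome 3, 89093588 to 89101959), which makes farnesyl diphosphate, had 36.5, 111 and 31.7 CPM at days 0, 7 and 42. Idi1, the enzyme that isomerizes its substrate, had 29.7, 86.0 and 30.3 CPM. Cyp51, the lanosterol demethylase gene, had 25.5, 64.0 and 27.4 CPM. These 3 were the genes past 2-fold, and each was near its day 0 level at day 42. Hmgcs1 (chromosome 13, 119690379 to 119708260) had 76.3, 160 and 68.2 CPM, and Msmo1, a sterol methyl oxidase gene, had 94.2, 185 and 97.1 CPM. Sc5d, a later step of the pathway, was the exception, with a log2 ratio of -0.16. All 22 lay below 0 at day 42 against day 7, with a median of -0.63. Of the 6 genes at least 2-fold lower, 3 were under 20 CPM at day 42, beside 0.834% of all genes lower by that much. The summed level of the list in thinned cells was 547, 831 and 489 CPM with Krt15, and 795, 1428 and 727 CPM without. The day 7 sum was the highest in both groups of cells. Over the genes that reached 20 CPM, the day 7 median was 0.61 in cluster 8 and from -0.31 in cluster 5 to 0.57 in cluster 1 among the other keratinocyte clusters. The log2 ratio of Hmgcs1 was 0.98 in cluster 8 and between -0.75 and 0.19 in the others.

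**Figure D4:**
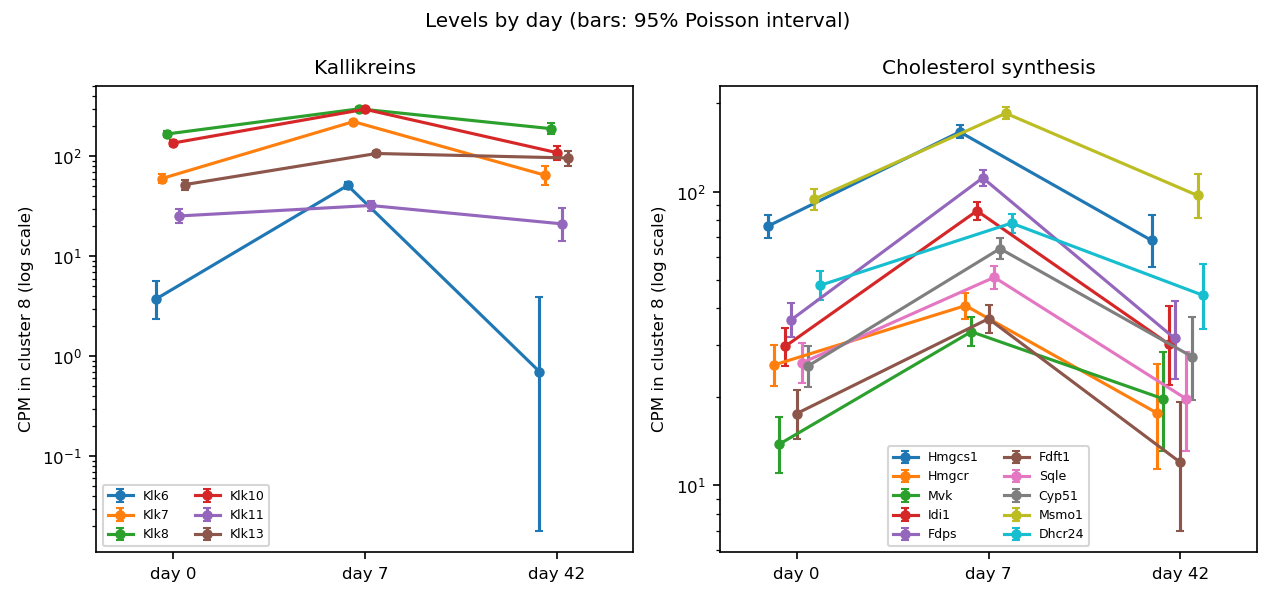
Levels in cluster 8 (CPM, log scale) of 6 kallikreins (left) and 10 cholesterol synthesis genes (right) at each day, with 95% Poisson intervals. Each gene is highest at day 7, and the interval of Klk6 at day 42 is wide because it rests on 1 UMI.

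The genes with the highest ratios at day 7 were S100a9 and S100a8, the calprotectin subunits that neutrophils carry in large amounts. S100a9 had 2.11, 533 and 138 CPM at days 0, 7 and 42, and S100a8 had 1.62, 437 and 73.2. S100a8 was detected in 20.3% of thinned cluster 8 cells and 16.4% of T cells at day 7, and in 1.62% and 3.85% at day 42, so its share of cells there is not above background. The 10 cells with most held 71.8% and 67.9% of their day 7 UMIs. Without them the log2 ratios were 4.03 and 3.93, against 5.49 and 5.26. At day 42, 10 cells held 95.9% of the S100a9 UMIs, and without them its log2 ratio to day 0 was 0.66 against 3.61. The whole list of 8 neutrophil markers summed to 7.96, 1122 and 241 CPM in cluster 8 at days 0, 7 and 42. In the other keratinocyte clusters it ranged from 2.96 to 203, from 297 to 6690 and from 35.4 to 503 CPM. At day 7, 4 of the 8 reached 20 CPM. In each of those clusters the S100a8 and S100a9 log2 ratios at day 7 were above 3. The part of neutrophil RNA in these values was not tested. The 11 immune cell markers summed to 40.8, 81.2 and 32.4 CPM.

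Lcn2 (chromosome 2, 32384633 to 32388252), which encodes lipocalin 2, an antimicrobial protein that binds bacterial siderophores, had 271, 758 and 217 CPM. It was detected in 29.3%, 62.0% and 26.9% of thinned cells, beside 2.63%, 7.46% and 3.85% of T cells. The log2 ratio was 1.45 in cluster 8 and 1.44 to 3.69 in the other keratinocyte clusters, all above 0. Of the 25 defensin and antimicrobial genes listed, 17 lay above 0 at day 7, with a median of 0.14. At least 2-fold higher were S100a9, S100a8 and Lcn2, of 12 genes that reached 20 CPM, beside 0.714% of all genes. S100a8 and S100a9 reached 20 CPM only at day 7. Krt6a had a log2 ratio of 1.31. Mt4, a metallothionein of stratified epithelium, had 16.6, 116 and 28.1 CPM, and its log2 ratio of 2.25 was 1.961 in thinned cells and 0.92 in thinned cells with no Krt1 or Krt10 UMI. Serpinb3a, a protease inhibitor gene, had 33.0, 102 and 27.4 CPM, and its log2 ratio of 1.38 was 1.68 in thinned cells and -0.10 in those with no Krt1 or Krt10 UMI. Cells with a Krt1 or Krt10 UMI made up 22.2%, 34.8% and 21.04% of thinned cells at days 0, 7 and 42. Krt10 was found in 15.1%, 21.8% and 12.6% of thinned cluster 8 cells, and in 4.39%, 28.4% and 15.4% of thinned T cells. Krt1 was found in 13.1%, 22.6% and 14.6%, and in 4.39%, 14.9% and 7.69% of thinned T cells. At days 7 and 42 a UMI of these genes therefore does not by itself show expression in a cell. The transcript 2610528A11Rik had 130, 304 and 224 CPM.

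The genes with the lowest ratios at day 7 were, after Alox12e, Fcgbp, Tmem45a, Fmo5, Cxcl14, Clca3a2, Ccl27a, Il11ra1 and Ifi27l2a, each at least 2-fold lower. With median-of-ratios size factors Clca3a2 (-0.99), Ccl27a (-0.97), Il11ra1 (-0.97) and Ifi27l2a (-0.95) fell short of 2-fold. Tmem45a (chromosome 16, 56805161 to 56886166), which encodes a membrane protein of keratinizing epithelium, had 800, 289 and 630 CPM at days 0, 7 and 42. It was lower at day 7 both in thinned cells with Krt15, at 726, 205 and 592 CPM, and in those without, at 843, 327 and 750 CPM. Its log2 ratio was -1.44 in cluster 8 and -0.91 to 0.67 in the other keratinocyte clusters. Fmo5, a flavin monooxygenase gene, had 163, 63.5 and 123 CPM, and the highest other keratinocyte cluster had 20.9. Clca3a2, a secreted chloride channel regulator gene, had 349, 156 and 305 CPM. The skin chemokine gene Ccl27a had 129, 55.4 and 125 CPM, and Cxcl14, a second epithelial chemokine gene, had 113, 44.6 and 68.9 CPM. Fcgbp, a mucus-associated gene that is on the colonocyte list, had 101, 19.4 and 68.2 CPM, and its log2 ratio was -2.76 without the 10 cells with most against -1.92. The 14 colonocyte markers summed to 278, 112 and 171 CPM in cluster 8, beside 89.8 to 893, 29.9 to 578 and 53.1 to 587 in the other keratinocyte clusters, and Cdx2, a defining colonocyte factor, was at 0 on each day. Il11ra1, a cytokine receptor gene, had 128, 55.3 and 110 CPM, and its log2 ratio of -1.08 was -0.72 in thinned cells and -0.57 in those with no Krt1 or Krt10 UMI. Apart from Cxcl14 and Fcgbp, each of these genes was at 0.754 or more of its day 0 level at day 42.

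**Figure D5:**
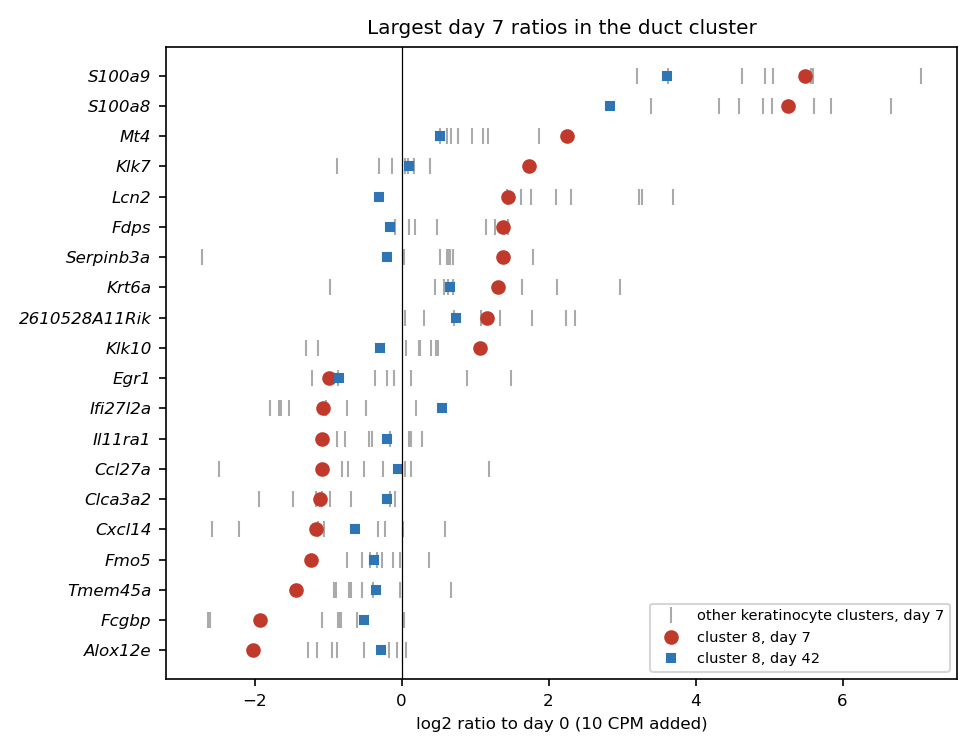
Log2 ratio to day 0 (10 CPM added) of the genes with the highest and lowest day 7 ratios in cluster 8, with red circles for cluster 8 at day 7, blue squares for cluster 8 at day 42, and grey ticks for the other keratinocyte clusters at day 7. Klk7, Alox12e, Tmem45a and Fmo5 lie outside the range of the other clusters, while Lcn2 and S100a8 lie within or at its edge.

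The class I presentation genes were lower at day 7 and higher at day 42, in small steps. All 9 listed lay below 0 at day 7 with a median of -0.33, and none was past 2-fold. At day 42 against day 7 all 9 lay above 0, with a median of 0.52, and none was past 2-fold. H2-Q7, a non-classical class I gene, had 128, 89.4 and 187 CPM at days 0, 7 and 42. Of the 18 interferon response genes, 15 lay below 0 at day 7, with a median of -0.31. Ifi27l2a, an interferon-inducible gene, had 280, 128 and 413 CPM, and its day 7 log2 ratio of -1.07 was -0.77 in thinned cells and -0.68 in those with no Krt1 or Krt10 UMI. Isg15, an interferon-induced ubiquitin-like gene, had 23.4, 8.87 and 41.5 CPM. At day 42 against day 7, 15 lay above 0, with a median of 0.62 beside -0.01 over all genes tested. Of 7 genes that reached 20 CPM, 4 were at least 2-fold higher beside 0.508% of all genes, but 5 of the 7 reached it only at day 42. Ifitm3, an antiviral membrane protein gene, had 890, 1346 and 1031 CPM and was among the 3 genes above 0 at day 7.

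Genes of basal cells went in different directions at day 7. Of the 3 basal keratins, Krt14 and Krt5 lay above 0, Krt15 lay below, and none was past 2-fold. Krt14 had 4415 CPM at day 0 and 5644 at day 7, and Krt5 had 1619 and 1757. Krt15 had 1214, 691 and 988 CPM at days 0, 7 and 42. Krt15 was lower at day 7 in all 8 other keratinocyte clusters as well, with log2 ratios from -3.24 to -0.12. Of the 11 hemidesmosome and basal adhesion genes, 10 lay below 0 at day 7, with a median of -0.28, and 10 lay above 0 at day 42 against day 7. None was past 2-fold, and Col17a1 moved most, with 278, 157 and 250 CPM. Of the 27 lipoxygenase and ceramide genes, Alox12e included, 19 lay above 0 at day 7, with a median of 0.20 beside -0.05 over all genes tested. Of the 10 that reached 20 CPM in either library, Alox12e was the 1 past 2-fold, and it was lower. Over all genes 0.446% were at least 2-fold lower and 0.714% higher. Elovl4, which makes very long fatty acids for barrier ceramides, had 81.7, 135 and 79.5 CPM. Of the 30 cornified envelope genes, 18 lay above 0, with a median of 0.08. Krtdap had 1383, 2485 and 1491 CPM, and involucrin (Ivl), a scaffold of the envelope, had 69.5, 73.4 and 66.1.

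At day 42 few genes stood away from day 0. Of 5629 tested, 16 were at least 2-fold higher (0.284%) and 7 at least 2-fold lower (0.124%), with a median of -0.04. Of the genes with at least 100 CPM, those past 2-fold were S100a9, Krt13 and Ly6a, all higher. Ly6a, a surface protein gene of stem and stressed cells, had 65.6, 142 and 149 CPM and so kept its day 7 level. Its log2 ratio at day 42 was 1.07, and -0.07 to 2.56 in the other keratinocyte clusters. It was 0.97 without the 10 cells with most and 0.94 in thinned cells with no Krt1 or Krt10 UMI (1.03 in all thinned cells), both short of 2-fold. Krt13, the keratin of mucosal suprabasal cells, had 85.9, 66.3 and 221 CPM, but 95.8% of its day 0 and 75.2% of its day 42 UMIs were in 10 cells. Its log2 ratio of 1.27 was 0.45 without the 5% of cells with the highest doublet scores and 2.32 without the 10 cells with most. The lowest named ratios were those of Zfp36 (-0.93), Egr1 (-0.85) and Lars2 (-0.77). The other named genes of that comparison stayed within 2-fold, among them Gm10076 (0.75) and Sostdc1 (0.48) above 0, and Fos (-0.60), Ier3 (-0.60), Eif3b (-0.59), Gm42418 (-0.55) and Arpc4 (-0.52) below. At day 42 against day 7, Edn1, the endothelin 1 gene, had a log2 ratio of 1.10, from 43.2 to 104 CPM, and Akr1c18, an aldo-keto reductase gene, one of 0.94, from 56.6 to 117 CPM. Zfp36 and Egr1 are immediate early genes of the list of dissociation stress genes, which the enzymatic release of cells is known to induce. The median log2 ratio of the 16 genes of that list was -0.41 at day 7 and -0.49 at day 42, and its part in the other ratios was not tested.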

How the data were processed

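Single-cell RNA-seq UMIs were measured in 3 pooled libraries, 1 per day. Per the labels' protocols the libraries were 10x Chromium 3' libraries, and the submitters' processing notes name Cell Ranger 3.0.2 and mm10. The counts are UMIs per gene and cell as deposited, for 31053 genes and 37080 cells. The deposited size factor of each cell is a ratio of its total to the geometric mean of the totals and was not used for levels. Days, clusters and cell type names are the authors' own, and how the cells were clustered is not given in the sources used here. No column of per-sample values was left out.

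UMIs of cluster 8 were summed per library and divided by their total, giving CPM. A gene counted as tested from 20 CPM in one of both libraries, and an absolute log2 ratio of at least 1, with 10 CPM added, counted as 2-fold. The other keratinocyte clusters with at least 50 cells in a library were weighted equally, which left out cluster 26. Cells were thinned to 2000 UMIs for shares of cells, and T cells served as background. Intervals are at the 95% level. PCR duplicates are removed by UMIs, but cells of 1 pool are not replicates, so no test was made.

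Named genes were chosen from the 6 markers, the 15 genes standing highest over the other keratinocyte clusters, and the 10 highest and 10 lowest ratios per pair of days, among genes that reached 100 CPM in one of both libraries (for the 15, in cluster 8 in every library). Of the 15, 1 is not reported here. Other genes were named as members of the 30 gene lists, to which cholesterol synthesis was added after values were seen. The members and lists were chosen with earlier results of these data known. Promoter motifs were chosen after values were seen.

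No doublets were removed. Scrublet, run in scanpy 1.11.5, called 436, 0 and 292 cells at days 0, 7 and 42, of which 9, 0 and 7 were in cluster 8. Its own threshold therefore did not work at day 7, and leaving out the 5% of cells with the highest scores was an alternative. The alternatives also covered scaling, the added CPM, filters on genes and cells, and the weight of single cells. Of 31053 gene identifiers, 30934 were found in GENCODE M21. Computation used Python 3.11.15, numpy 2.4.6, pandas 2.3.3 and scipy 1.17.1. The log2 ratios between days were tested on simulated summed UMIs with Poisson error, and the other steps were not simulated.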

Additional observations from a re-analysis of the deposited data

Results flagged for a closer look

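In 3 genes the cells of cluster 8 and those of another keratinocyte cluster moved in opposite directions by at least 2-fold between the same libraries. Only chosen genes, mainly those named above, were compared in this way. The count therefore has no share over all genes beside it. With 1 library per day, none of these differences was tested. S100a8 had a log2 ratio of 2.84 at day 42 against day 0 in cluster 8, from 1.62 to 73.2 CPM, and of -1.21 in cluster 12, from 101.5 to 38.3 CPM. In cluster 8 it was found in 2.20% of the day 42 cells, beside 3.31% of T cells, so this share is not above background. Its ratio was 0.23 without the highest Scrublet scores and 0 without the 10 cells with most, so it rests on few cells. Serpinb3a had 1.38 at day 7 against day 0 in cluster 8 and -2.71 in cluster 12, from 641 to 89.2 CPM. In cluster 8 it was 1.68 in thinned cells and -0.10 in those with no Krt1 or Krt10 UMI. Klk10 had 1.07 at day 7 in cluster 8, -1.14 in cluster 1, from 45.1 to 15.03 CPM, and -1.30 in cluster 12, from 285 to 110 CPM. With the filter on cells the cluster 8 ratio was 0.97, short of 2-fold. Ccl27a had -1.09 at day 7 in cluster 8, and -0.97 with median-of-ratios size factors. In cluster 12 it was listed at 0 at day 0 and had 12.8 CPM at day 7, under the 20 CPM from which a gene counts as tested, so no ratio is given there. Cluster 12 had 51, 1668 and 152 cells at days 0, 7 and 42, so its day 0 levels rest on few cells.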

How the results depend on the processing

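No paired analysis was possible because each day is 1 library. Over the alternatives, 295 summary values moved by less than their allowed margin and 47 moved by more, and of the single-gene ratios 2449 moved by less, 523 by more and 1 changed sign. The cause was not tested for these. Thinned cells, cells with no Krt1 or Krt10 UMI (also thinned, so that 2 choices change together), and the cholesterol list were added after seeing the data. The share of keratinocytes at day 0, 7 and 42 was 28.0%, 11.3% and 13.1% without clusters 1 and 5, and 21.6% at day 0 and 3.98% at day 42 with a filter on cells.

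The 25 genes at least 2-fold lower at day 7 than day 0 became 16 with median-of-ratios size factors, 44 with totals without mitochondrial and ribosomal genes, 63 with 1 CPM added, 43 in cells with no Krt1 or Krt10 UMI and 9 at 100 CPM or more, where the 40 higher became 17. At day 42 against day 0, the 16 higher became 7 without the highest Scrublet scores, 29 with the other totals, 27 in cells with no Krt1 or Krt10 UMI and 3 at 100 CPM. The 7 lower became 4, 15, 66 and 0 under these settings, 13 with 1 CPM added and 27 in thinned cells. At day 42 against day 7, the 28 higher became 53 with the other totals, 62 with 1 CPM added, 61 in cells with no Krt1 or Krt10 UMI and 6 at 100 CPM, where the 46 lower became 15.

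The list medians here are over members that reached 20 CPM in either library, while most medians above are over all members. At day 7 against day 0, dissociation stress moved from -0.41 to -0.29 with size factors and to -0.52 as a mean per cell. Kallikreins moved from 0.36 to 0.57 as a mean per cell. Interferon response moved from -0.83 to -1.15 with 1 CPM added and to -0.53 over members with 5 CPM. At day 42 against day 7 it moved from 1.05 to 1.68 with 1 CPM added. The cornified envelope median at day 7 against day 0 moved from 0.098 to 0.30 in thinned cells. In cells with no Krt1 or Krt10 UMI, cornified envelope was -0.12, defensins 0.30 against 0.63, and lipoxygenase and ceramide genes 0.53 against 0.23. Serpinb3a reversed to -0.10 in those cells. Defensins were 0.75 over members with 5 CPM. At day 42 against day 7 they moved from -0.46 to -0.23 in thinned cells and to -0.054 in cells with no Krt1 or Krt10 UMI.

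The 187 genes at least 2-fold higher than the other keratinocyte clusters at day 42 became 309 with those clusters summed and 304 with 1 CPM added. Likeness to cluster 9 at day 0 was 0.876 at 100 CPM and 0.855 as Spearman's rho. Likeness to cluster 4 was 0.895 and 0.875 at day 7, and 0.874 and 0.842 at day 42, where cluster 9 was higher at 0.878 and 0.845. Klk7 at day 7 kept a log2 ratio above 1 and Alox12e one below -1 under every alternative run. The day 42 cells, with the fewest UMIs, give the widest counting intervals.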
